A study of Rattus with 6 samples.

Results

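Myod1, Cdh15, Des and Mef2c are 4 genes of skeletal muscle precursors, taken by symbol from a table of 16690 genes measured in bone marrow mesenchymal stem cells (BMSCs) of rats. BMSCs are the adherent stromal cells of the marrow, which can form bone, fat and cartilage. The 4 genes were chosen with their levels in these libraries already known, so their levels and differences are given as a description, with no test. Their symbols and NCBI Gene numbers in the table were Myod1 (337868), Cdh15 (361432), Des (64362) and Mef2c (499497).

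RNA was sequenced in 3 libraries of BMSCs from rats made to model chronic kidney disease (CKD), called CKD1, CKD2 and CKD3 as in the table, and in 3 from healthy rats, called con1, con2 and con3. All animals were Sprague Dawley rats labelled wild-type, and the cells of both groups were grown in α-MEM with 10% fetal bovine serum and used between passages 3 and 5. The way in which CKD was induced and the age and sex of the animals are not given in the sources used here; the libraries are described as biological replicates, but no label ties each one to its own animal. The design text speaks of RNA of the cells and the extract protocol of RNA of exosomes, so "in the cells" is avoided below. The study set the 2 groups side by side to find molecular changes that go with the disease.

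Values are FPKM, fragments scaled to gene length and library depth, a level per length that allows genes to be set side by side. Between 34404037 and 46892613 fragments per library were recovered from the table. Libraries did not separate by group alone. CKD2 and CKD3 were alike (Pearson r = 0.996 across tested genes) and so were con2 and con3 (r = 0.998), while CKD1 was closer to con1 (r = 0.967) than to CKD2 (r = 0.935) or CKD3 (r = 0.944). Library names share a start in CKD1 and CKD3 and in con1 and con2, and whether these libraries share a source is not given in the sources used here, so n = 3 below counts libraries. The disease model tag contradicts the title and library name of CKD1, which it gives as a control, and of con2, which it gives as CKD, so results are also given by that tag. As for the labelled cell type, the stromal surface marker genes Thy1 (between 505 and 801 FPKM) and Itgb1 (between 847 and 1204 FPKM) were high in all 6 libraries. Of the 14 genes of the stromal list, 13 were tested, Lepr was at most 0.246 FPKM in every library, and Eng ran from 10.8 FPKM in CKD1 and 11.8 in con1 to 88.8 in con3. Ptprc, which encodes CD45, a marker for which the cultures were negative by flow cytometry, ranged from 0.0140 to 15.5 FPKM.

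Skeletal muscle is built by precursor cells that are switched into the muscle programme by a family of basic helix-loop-helix factors, Myod1, Myf5, Myog and Myf6. These bind DNA together with E proteins and act with MEF2 factors on genes of the contractile apparatus, and Id proteins hold them back by taking up the E proteins. Quiescent precursors, called satellite cells, carry Pax7 and M-cadherin (Cdh15), and desmin (Des) is the intermediate filament that appears early in muscle precursors and is also made by smooth muscle and pericytes. Mef2c is not restricted to muscle, being expressed also in macrophages, lymphoid and bone cells.

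Myod1, the master regulator of the muscle fate, stood at 4.33 and 4.04 FPKM in CKD2 and CKD3 and at 0.0133 FPKM in CKD1. It was listed at 0 in all 3 control libraries. These levels rested on 290, 339 and 1 fragments in CKD2, CKD3 and CKD1 and on 0 fragments in each control. A count of 0 allows up to 3 fragments, worth between 0.0328 and 0.0402 FPKM in the controls, so CKD1 lay within what the controls allow and was not distinguishable from them. Myod1 was thus high in 2 of the 3 CKD libraries, where it ranked above 55.0% and 54.3% of the genes of the table. The group mean was 2.79 ± 2.41 FPKM in CKD (SD, n = 3), which is 76.2-fold the floor of 3 fragments per control library. This fold depends on the floor taken. The SD within CKD was nearly as large as the mean, with CKD1 at the level of the controls.

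Between CKD2 and CKD3 the exact Poisson 95% intervals of Myod1, 3.84 to 4.85 and 3.62 to 4.50 FPKM, overlapped. Such intervals, here and elsewhere, cover counting error only. In the authors' deposited table the mean normalized count of Myod1 was 208 in CKD and 0 in control, with a fold change of 1155. A finite fold against a group at 0 depends on the method and is no measured ratio.

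**Figure D1:**
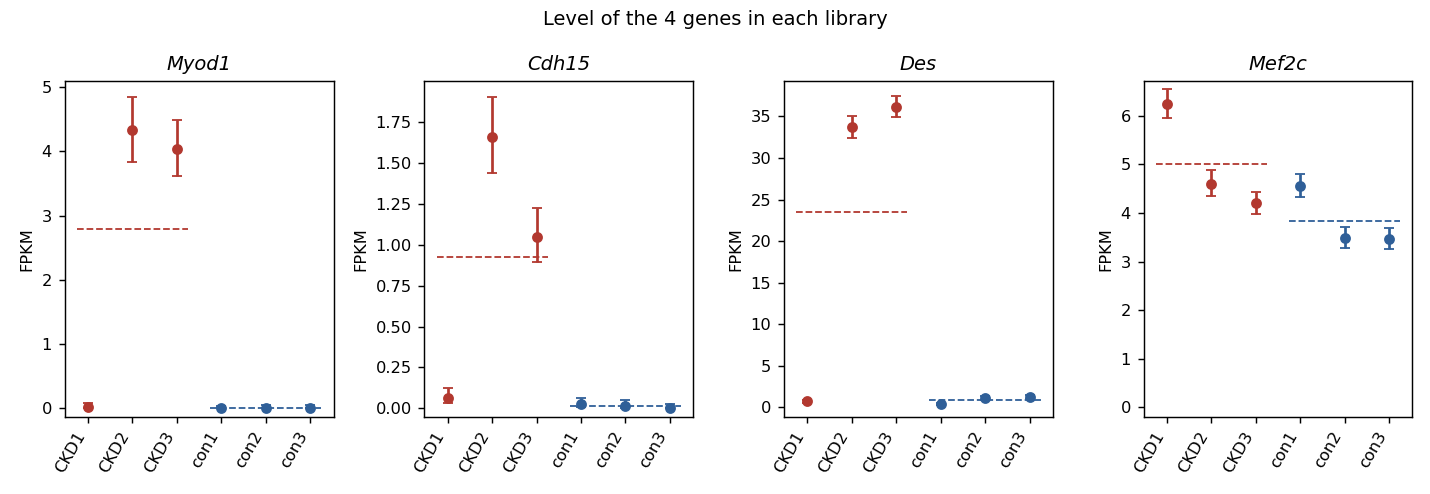
Level of Myod1, Cdh15, Des and Mef2c (FPKM, linear axes) in each of the 3 CKD libraries (red) and 3 control libraries (blue), with exact Poisson 95% intervals as bars and group means as dashed lines. Myod1, Cdh15 and Des are high in CKD2 and CKD3 only, while Mef2c is highest in CKD1, at 6.25 FPKM.

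Cdh15 encodes M-cadherin, the adhesion molecule by which satellite cells hold to the muscle fibre and to each other. It stood at 1.66 FPKM in CKD2, 1.05 in CKD3 and 0.0653 in CKD1, and at 0.0239, 0.0134 and 0 FPKM in con1, con2 and con3. The same 2 CKD libraries were high, on 204 and 161 fragments, against 9 in CKD1 and 4, 2 and 0 in the controls. The intervals of CKD2 and CKD3, 1.44 to 1.90 and 0.892 to 1.22 FPKM, did not overlap. CKD1 lay above all controls in value, but its interval of 0.0299 to 0.124 FPKM overlapped that of con1 (0.00651 to 0.0612). Over the groups, Cdh15 averaged 0.924 ± 0.805 FPKM in CKD and 0.0124 ± 0.0120 in control (SD, n = 3 each). The ratio of summed fragments per depth, CKD over control, was 68.2 (exact 95% interval 31.0 to 187), with 6 fragments in all on the control side.

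Des was the highest of the 4 genes, at 33.7 and 36.2 FPKM in CKD2 and CKD3. In CKD1 it stood at 0.729 FPKM, between con1 at 0.393 and con2 and con3 at 1.13 and 1.20 FPKM. The groups overlapped for this reason, although Des ranked above 88.8% and 89.6% of genes in the 2 high libraries. Unlike Myod1, Des was detected in every library, on at least 40 fragments. CKD2 exceeded CKD1 by 46.2-fold in FPKM and CKD3 exceeded it by 49.6-fold. The mean was 23.5 ± 19.8 FPKM in CKD and 0.908 ± 0.447 in control (SD, n = 3 each).

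Mef2c, a MADS-box partner of the myogenic factors, did not share this pattern. It was present in all libraries, at 6.25, 4.60 and 4.20 FPKM in CKD1, CKD2 and CKD3 and at 4.56, 3.49 and 3.47 FPKM in con1, con2 and con3. CKD1 was the highest, and con1 lay between CKD2 and CKD3, so the groups overlapped. In the order of levels, the intervals of CKD2 and con1 overlapped, as did those of con1 and CKD3, and those of con2 and con3. The mean was 5.02 ± 1.09 FPKM in CKD and 3.84 ± 0.624 in control (SD, n = 3 each), a difference of 0.31 ± 0.18 SE on the log2(FPKM + 1) scale.

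On that scale, where the added 1 shrinks differences of low genes, the CKD minus control difference was 1.59 ± 0.79 for Myod1, 0.83 ± 0.39 for Cdh15 and 2.80 ± 1.47 for Des (SE, n = 3 each). Of the 4 genes, 2 had groups that did not overlap, Myod1 and Cdh15. Among all 16690 genes, 16.9% had CKD libraries that all lay above all controls, and since the genes were chosen for this contrast nothing is read from the count. Myod1 and Cdh15 reached 1 FPKM in 2 libraries each and so did not pass the filter of the genome-wide fit, which asked for 1 FPKM in 3 libraries. Des and Mef2c passed it.

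The differences depended on the libraries used. Without CKD1 the difference of Myod1 was 2.37 in place of 1.59, that of Cdh15 1.20 and that of Des 4.26. It was 1.18 for Myod1, 0.54 for Cdh15 and 2.10 for Des without CKD2, and 1.22, 0.73 and 2.05 without CKD3. Grouped by the disease model tag, Myod1 averaged 2.79 ± 2.42 FPKM in libraries tagged CKD and 0.00443 ± 0.00768 in those tagged as control (SD, n = 3 each), since both high libraries carry the tag CKD. The direction of Mef2c turned under that tag, to 4.10 ± 0.563 against 4.76 ± 1.40 FPKM (SD, n = 3 each).

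**Figure D2:**
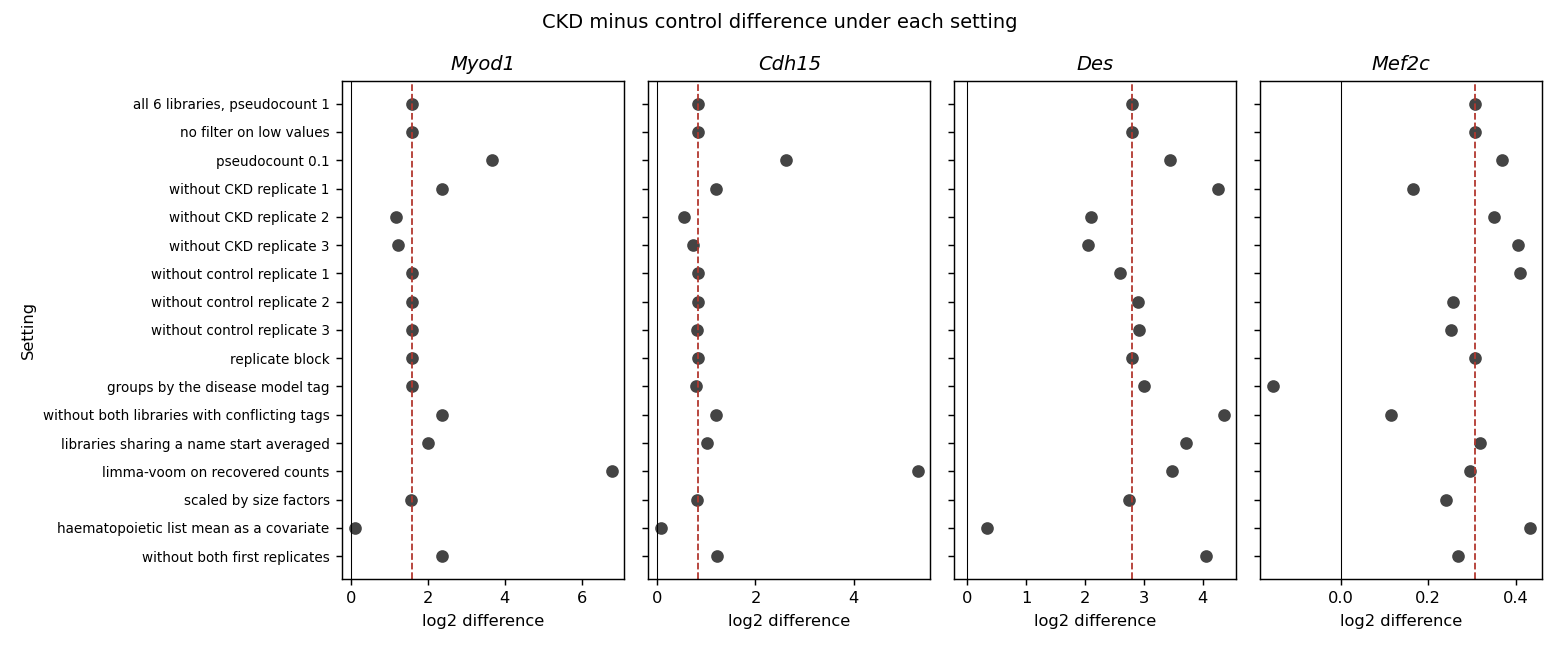
CKD minus control difference in mean log2 level (horizontal axes) of Myod1, Cdh15, Des and Mef2c under each setting (rows), with the reported value as a dashed line and 0 as a solid line. With the haematopoietic genes, averaged, as a covariate the differences of Myod1, Cdh15 and Des are 0.11, 0.077 and 0.34, and Mef2c lies below 0 only with groups by the disease model tag. The covariate is itself high in CKD2 and CKD3, so nothing is read from the smaller differences.

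Across the 6 libraries, the log2 levels of Myod1, Cdh15 and Des ran together (Pearson r = 0.984 for Myod1 and Cdh15, 0.994 for Myod1 and Des, 0.970 for Cdh15 and Des), and Mef2c did not follow them (r = 0.042, 0.106 and -0.032). These correlations describe 6 points, of which CKD2 and CKD3 are set against the rest. Of 10636 other tested genes, 482 (4.53%) had r of at least 0.95 with Myod1, 457 (4.30%) with Cdh15, 387 (3.64%) with Des and 80 (0.752%) with Mef2c.

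The genes most like Myod1 were Tpi1, a glycolytic enzyme (r = 0.998), Egln1, an oxygen sensor that marks hypoxia-inducible factors for decay, the phosphatase subunit gene Ppp1cc, Cyp1b1 and Arfgef1. Tpi1 stood at 443 and 416 FPKM in CKD2 and CKD3 and between 161 and 175 FPKM in the other 4 libraries. Nearest to Cdh15 were Uqcrfs1, Sdhd and Ndufa9, all of the respiratory chain, with Ranbp3 and B4galt6. Nearest to Des were Acss3, Manba, Ldha, Etv3 and Atp6v0a1, where Ldha, lactate dehydrogenase A, stood at 618 and 602 FPKM in CKD2 and CKD3 and between 224 and 275 FPKM elsewhere. Nearest to Mef2c were Rasa2, Pdgfd, Wdr75, Dctd and Rps10. None of these 20 genes passed the genome-wide test (limma adjusted p between 0.207 and 0.417).

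The remaining genes of the muscle programme were examined in 6 lists, with CKD compared to control by limma on log2(FPKM + 1) over 10638 genes. Over all genes, 220 (2.07%) passed, of which 142 (1.33%) were higher and 78 (0.733%) were lower in CKD at an adjusted p under 0.05, with a median log2 fold change of 0.053. Of 90 tested genes of the 6 lists, 4 were higher and 3 were lower, with a median of 0.0041.

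Among the myogenic factors themselves, Myog, which drives precursors into differentiation, stood at 1.10 and 0.369 FPKM in CKD2 and CKD3 and was listed at 0 in the other 4 libraries. These values rested on 55 and 23 fragments. The 2 libraries with high Myod1 were the ones with Myog fragments. Mymk, the fusion protein myomaker, was lower still, with 15 and 6 fragments in CKD2 and CKD3 and at most 2 elsewhere, and is named, as are other genes given without a test, after its values were seen. Pax7, Pax3, Myf5 and Myf6 were not among the 16690 genes with values, under these or other names. No gene of the table had a mean normalized count under 1.03 over both groups. These 4 may thus have been lower than that or left out for another reason. No value of the defining marker Pax7 therefore stands behind the label of progenitor. Of the other MEF2 genes, neither Mef2a nor Mef2d passed the test. Mef2a averaged 16.6 ± 1.48 FPKM in CKD and 15.5 ± 2.34 in control (limma adjusted p = 0.698), and Mef2d 9.82 ± 1.09 and 10.4 ± 1.49 (limma adjusted p = 0.792; SD, n = 3 each).

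Of 15 tested regulators and cofactors, 2 were higher in CKD, none was lower and the median log2 fold change was 0.10. Prmt5, an arginine methyltransferase that acts with Myod1 on chromatin, averaged 15.3 ± 0.659 FPKM in CKD and 11.2 ± 0.196 in control (limma log2 difference of 0.41 ± 0.066 SE, adjusted p = 0.0463). H19, an imprinted RNA abundant in embryonic muscle, stood at 12.5, 136 and 82.8 FPKM in CKD1, CKD2 and CKD3 and at 0.0619 FPKM or less in the controls (limma adjusted p = 0.0439). Its neighbour Igf2, a growth factor of muscle, stood at 0.350, 4.91 and 3.51 FPKM in the same order and at 0.0404 or less in the controls. H19 and Igf2 were above every control also in CKD1, on 96 fragments for Igf2, whereas Myod1 rested there on 1 fragment.

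Of 17 tested inhibitors of the programme, none was higher and 1 was lower, with a median of -0.059. The lower gene was Zeb1, a repressor that competes at E-boxes (7.25 ± 0.774 FPKM in CKD, 11.4 ± 0.623 in control, SD, n = 3 each; limma log2 difference of -0.59 ± 0.093 SE, adjusted p = 0.0463). Id1, which sequesters the E protein partners of Myod1, stood at 13.6, 8.80 and 12.5 FPKM in CKD1, CKD2 and CKD3 and at 27.5, 22.6 and 22.7 in the controls. Its groups did not overlap, as held for 27.8% of tested genes, and it missed the threshold (limma log2 difference of -1.01 ± 0.17 SE, adjusted p = 0.0513). Id3 had a log2 fold change of -0.31 ± 0.16 (limma adjusted p = 0.320). Fst, which encodes follistatin, an antagonist of myostatin, stood at 6.91, 28.0 and 26.4 FPKM in CKD1, CKD2 and CKD3 and between 3.72 and 4.15 in the controls, and it did not pass (limma adjusted p = 0.123).

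**Figure D3:**
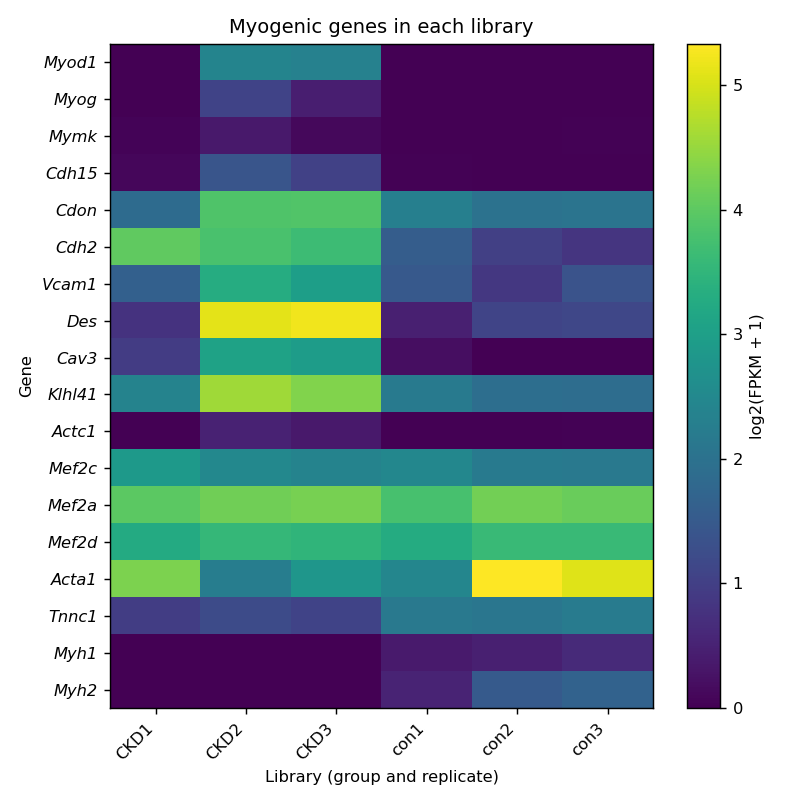
Level of 18 myogenic genes (rows) in the 6 libraries (columns), as log2(FPKM + 1). Myod1, Myog, Cdh15, Des, Cav3 and Klhl41 are brightest in CKD2 and CKD3, Cdh2 is bright in all 3 CKD libraries, and Acta1, Tnnc1, Myh1 and Myh2 do not follow Myod1.

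Of 18 tested genes of myoblast adhesion and fusion, 1 was higher and none was lower, with a median of 0.056. Cdh2 encodes N-cadherin, the other main cadherin of myoblasts beside Cdh15. It stood at 15.4, 12.9 and 11.5 FPKM in CKD1, CKD2 and CKD3 and at 1.95, 1.02 and 0.769 in con1, con2 and con3 (limma log2 difference of 2.69 ± 0.22 SE, adjusted p = 0.0125). N-cadherin was thus highest in CKD1, the CKD library in which M-cadherin was lowest. Cdon, a co-receptor that associates with both cadherins, stood at 13.5 and 13.7 FPKM in CKD2 and CKD3 and between 2.66 and 3.92 in the other 4 libraries (limma adjusted p = 0.315).

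Of 14 tested genes of satellite cells and their niche, none was higher and 1 was lower, with a median of 0.15. Met, the receptor for hepatocyte growth factor on satellite cells, averaged 1.86 ± 0.201 FPKM in CKD and 4.71 ± 0.296 in control (SD, n = 3 each; limma log2 difference of -1.0 ± 0.089 SE, adjusted p = 0.0181). Itga7, the laminin receptor subunit of muscle, averaged 5.93 ± 1.13 and 6.10 ± 2.05 FPKM (limma adjusted p = 0.996). Vcam1, an adhesion receptor of satellite cells and of stroma, stood at 8.78 and 6.94 FPKM in CKD2 and CKD3, 2.12 in CKD1 and between 0.829 and 1.80 in the controls (limma adjusted p = 0.159). Ncam1 went the other way, at 14.6 and 15.1 FPKM in CKD2 and CKD3, 57.5 in CKD1 and between 40.9 and 73.4 in the controls (limma adjusted p = 0.334). Vcam1 and Ncam1 were picked after their values were seen. Of the 19 genes of this list with values, 7 (36.8%) were highest in CKD2 or CKD3, beside 42.8% of all genes.

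The contractile apparatus was little expressed. Of 39 sarcomere and muscle membrane genes with values, 23 stayed under 1 FPKM in all libraries and 9 were tested, of which 1 was lower in CKD and none was higher (median -0.39). Titin (Ttn) reached at most 0.00109 FPKM. Tnnc1, troponin C of slow and cardiac muscle, averaged 1.13 ± 0.185 FPKM in CKD and 3.47 ± 0.182 in control (SD, n = 3 each; limma log2 difference of -1.08 ± 0.095 SE, adjusted p = 0.0181). Acta1, skeletal actin, stood at 18.5, 3.76 and 5.98 FPKM in CKD1, CKD2 and CKD3 and at 4.46, 39.2 and 32.6 in con1, con2 and con3, so that the groups overlapped (limma adjusted p = 0.490). Actins have near-identical coding sequences, so fragments could be shared with Acta2 and the value is uncertain.

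Some genes of muscle structure did follow Myod1. Of the 39 sarcomere and muscle membrane genes with values, 17 (43.6%) were highest in CKD2 or CKD3, close to the 42.8% of all genes. Cav3, caveolin of the muscle membrane, stood at 7.44 and 6.67 FPKM in CKD2 and CKD3, 0.918 in CKD1, 0.142 in con1 and 0 in con2 and con3. Klhl41, a protein of the sarcomere, stood at 22.7 and 18.9 FPKM in CKD2 and CKD3 and between 2.75 and 4.19 elsewhere (limma adjusted p = 0.166). Actc1, cardiac actin, an early actin of muscle precursors, had 22 and 18 fragments in CKD2 and CKD3 and at most 1 elsewhere. Myh2 and Myh1, myosins of adult fast fibres and untested here, were nearly absent from all CKD libraries, CKD1 included. Myh2 stood at 0.450, 1.84 and 2.18 FPKM in con1, con2 and con3, on 128, 465 and 507 fragments, and had 1, 0 and 0 fragments in CKD1, CKD2 and CKD3. Myh1 had between 87 and 126 fragments in the controls and at most 1 in CKD. Myh1 and Myh2 are close relatives in sequence, and fragments may have been split between them.

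Of 17 tested filament genes and partners of desmin, 1 was higher and none was lower, with a median of -0.075. Nes, nestin, an intermediate filament of precursor cells that pairs with desmin in muscle, averaged 2.24 ± 0.823 FPKM in CKD and 0.219 ± 0.217 in control (SD, n = 3 each; limma log2 difference of 1.39 ± 0.22 SE, adjusted p = 0.0471). Nes was above every control in CKD1 too, where Des was not. Vimentin (Vim), the general mesenchymal filament, lay between 2722 and 5065 FPKM in all libraries (limma adjusted p = 0.891), so that desmin stayed far below it even where it was high.

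**Figure D4:**
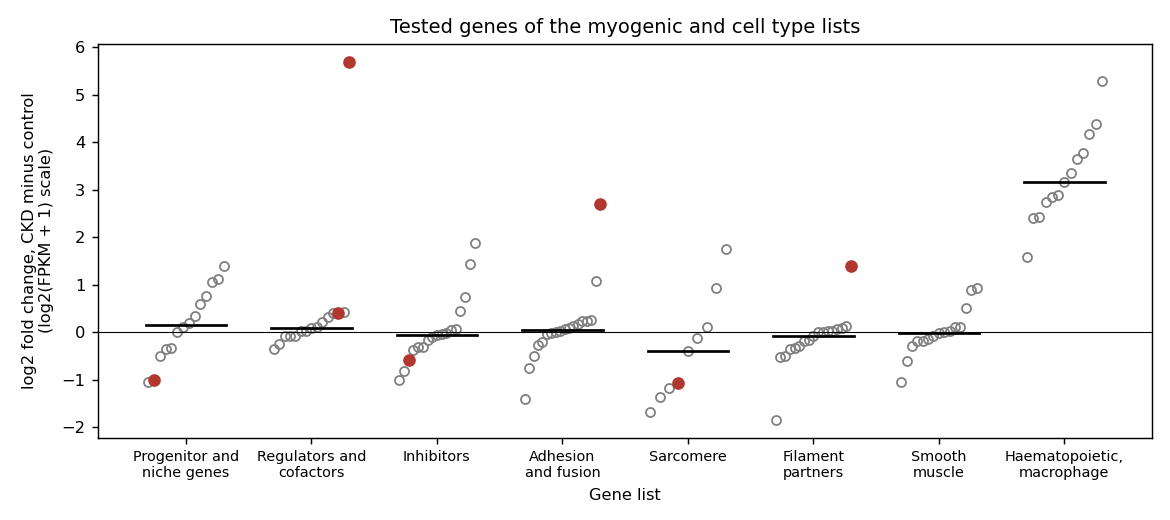
Log2 fold change, CKD minus control, of each tested gene in 6 muscle lists and 2 cell type lists, without the 4 chosen genes, where filled red points passed at a limma adjusted p under 0.05 and black bars are list medians. The haematopoietic list has a median of 3.16 with no gene passing, and the muscle lists have medians between -0.39 and 0.15.

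The 7 calls in these lists (Cdh2, H19, Met, Nes, Prmt5, Tnnc1 and Zeb1) depended on the libraries and settings used. None was called without CKD2, CKD3, con2 or con3, fits in which 9, 8, 7 and 6 genes were called over all genes, and none with groups by the disease model tag or with the haematopoietic genes, averaged, as a covariate. Cdh2 alone was called with the replicate number as a block, and Cdh2, Met and Tnnc1 in limma-voom on recovered counts. With any 1 library left out, the log2 difference ran from 2.54 to 2.91 for Cdh2, from -1.05 to -0.94 for Met, from -1.14 to -1.02 for Tnnc1 and from 0.38 to 0.44 for Prmt5. That of Nes ran from 1.20 to 1.57, that of Zeb1 from -0.66 to -0.55 and that of H19 from 5.01 to 6.69. With the covariate it was 2.60 for Cdh2, -0.95 for Met and -1.19 for Tnnc1, but 0.84 for Nes and 3.75 for H19, and under the tag it was 0.68 for Cdh2. When libraries whose names share a start were averaged into 1, Cdh2, H19, Met and Tnnc1 were called, and Nes (limma adjusted p = 0.0575), Prmt5 (0.0835) and Zeb1 (0.0723) were not.

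Markers of other cell types were read in the same libraries. In bulk libraries, fewer cells of a type and less RNA per cell cannot be told apart. Of 18 haematopoietic and macrophage genes, 17 were highest in CKD2 or CKD3, as were 42.8% of all genes, and the summed level of the list was 292, 3256 and 2181 FPKM in CKD1, CKD2 and CKD3 and 394, 21.9 and 14.0 in con1, con2 and con3. All 13 tested genes had a positive log2 fold change (median 3.16), limma called none, and 9 had an unadjusted p under 0.05. Ptprc stood at 15.5 and 11.4 FPKM in CKD2 and CKD3, 0.783 in CKD1, 1.33 in con1 and at most 0.0204 in the other controls (limma adjusted p = 0.201). Csf1r, the receptor of macrophages, stood at 25.7 and 21.0, 1.42, 2.20 and at most 0.290 FPKM in the same order (limma adjusted p = 0.192). Myod1 had 1 fragment in CKD1 and 0 in con1. With the mean of this list as a covariate, the difference of Myod1 was 0.11, that of Cdh15 0.077, that of Des 0.34 and that of Mef2c 0.43 on the log2 scale. The list is itself high in CKD2 and CKD3, the libraries where Myod1, Cdh15 and Des are high. Its tested genes had a median r of 0.879 with Myod1, and those of a cell cycle list had 0.842. A covariate with this pattern shrinks such differences whatever its genes are, so nothing is read from them. Whether these cells have a part in the levels of the 4 genes was not tested.

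Smooth muscle and pericyte genes, from cells that also make desmin, were mostly not highest in the same libraries. Of 17 with values, 1 was highest in CKD2 or CKD3, beside 42.8% of all genes. It was Pdgfrb, at 134 and 149 FPKM in CKD2 and CKD3, 119 in CKD1 and between 58.8 and 118 in the controls (limma adjusted p = 0.341). The summed level was 11824, 5087 and 6168 FPKM in CKD1, CKD2 and CKD3 and 6262, 7355 and 7012 in the controls. None of 15 tested genes was called by limma (1 had an unadjusted p under 0.05), with a median of -0.022. Acta2, smooth muscle actin, stood at 1401 and 1826 FPKM in CKD2 and CKD3, its lowest values, and at 4092 in CKD1 (limma adjusted p = 0.968). Myh11, smooth muscle myosin, averaged 57.3 ± 21.8 FPKM in CKD and 38.5 ± 27.3 in control (SD, n = 3 each; limma adjusted p = 0.536). Of 10 endothelial genes with values, 5 stayed under 1 FPKM in all libraries, the defining gene Pecam1 among them at no more than 0.172. Tie1 (2.48 and 2.31 FPKM) and Esam (2.72 and 2.18) were highest in CKD2 and CKD3, Tek (2.25 and 2.31) in con2 and con3, and Egfl7 lay between 5.90 and 11.2 in all libraries (limma adjusted p = 0.445). The part of such cells in the levels of the 4 genes was not tested. None of the 4 heart muscle genes with values reached 1 FPKM in any library.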

How the data were processed

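Libraries were poly-A selected and stranded, per the labels' protocols. The submitters' processing notes name the build mRatBN7.2 and, with no roles or settings, DESeq2 1.22.2, DESeq 1.34.1, HTSeq 0.11.2, HISAT2 2.1.0, FastQC 0.11.9 and SAMtools 1.9. The authors deposited, per the file headers, FPKM per library, mean normalized counts per group, and a fold change, log2 fold change, p-value and q-value per gene (decimals marked by commas). Over both groups the lowest mean normalized count was 1.03, so genes below it are not analysed here. The deposited p- and q-values were not used.

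Fragment counts were recovered from the FPKM and the group means (100140 values, all whole within 0.01). The groups were then tested in limma 3.58.1 under R 4.3.3, on values of log2(FPKM + 1), two-sided, with a mean-variance trend and Benjamini-Hochberg adjustment at 0.05, on 10638 genes with at least 1 FPKM in 3 libraries. P-values weigh the group difference against the spread between libraries, which may be partly technical.

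The 4 genes and all lists were chosen with earlier results of these data known. Named genes were the 5 most correlated with each of the 4, up to 4 called per list by lowest adjusted p, and others set by name. Fst, Vcam1, Ncam1, Klhl41, Pdgfrb, Egfl7, Thy1, Itgb1 and Eng were tested but are named outside these rules, with their values known. In addition, 1 symbol was updated (Mylpf to Myl11). No sequence or coordinate is given.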

Additional observations from a re-analysis of the deposited data

How the results depend on the processing

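Outside CKD2 and CKD3, Myod1 and Cdh15 rest on 9 fragments or fewer, so their levels there are uncertain. Depth was not lower there, as CKD2 had the fewest fragments in all (34404037). With each library left out in turn, calls over all genes ran from 1 to 1139 higher (142 with all libraries) and from 5 to 546 lower (78), and those in the myogenic and cell type lists together from 0 to 21 higher and 0 to 17 lower (4 and 4). Higher and lower calls over all genes were 81 and 52 without a filter on low values, 60 and 28 with the replicate block, 237 and 61 without both libraries with conflicting tags, 61 and 62 in limma-voom, 7 and 13 with the haematopoietic covariate, and 3689 and 2162 without both first replicates, a setting chosen after seeing the data. With groups by the disease model tag limma called 0 and 0 (641 at an unadjusted p under 0.05). In the lists, higher calls were 2 without the filter, 1 with the replicate block, 0 by the tag, 8 without conflicting libraries, 1 in limma-voom, 1 with the covariate and 48 without both first replicates, and lower calls were 0 with the replicate block, 0 by the tag, 0 with the covariate and 49 without both first replicates. Same-numbered libraries did not deviate together (r = 0.036, -0.031 and 0.109), so the numbers are not taken as pairs. With a pseudocount of 0.1 the difference of Myod1 was 3.67 and that of Cdh15 2.63, and on recovered counts they were 6.77 and 5.30, where the added constant is smaller. With the covariate, itself high in CKD2 and CKD3, they were 0.11 and 0.077, and that of Des was 0.34. For Mef2c it was -0.15 by the tag. The cause was not tested for these. Leaving out 1 library gave 1.18 to 2.37 for Myod1, 0.54 to 1.20 for Cdh15, 2.05 to 4.26 for Des and 0.16 to 0.41 for Mef2c. The difference was positive in all 16 settings for Myod1, Cdh15 and Des and in 15 for Mef2c. Nothing is read from these counts. The settings reuse the libraries whose levels were known at the choice, and some, such as the replicate block, cannot change the difference. Acta2 ran from -0.41 to 0.36 with 1 library left out, passing in none of these fits, and was -0.38 without both first replicates (limma adjusted p = 0.0341).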

Other observations

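Single genes from lists of other cell types were, like Myod1, highest in CKD2 and CKD3, and were picked after their values were seen. Erbb3, a neuregulin receptor of Schwann cell precursors and muscle, stood at 1.70 and 1.06 FPKM in CKD2 and CKD3, on 367 and 287 fragments, and at 0.0455 in CKD1, 0.106 in con1 and 0.00765 and 0 in con2 and con3. Tie1, a receptor of endothelial cells, stood at 2.48 and 2.31 FPKM in CKD2 and CKD3, 0.0667 in CKD1, 0.154 in con1 and 0 in the other controls, and Flt1, of the same list, stood at 0.508 and 0.679 FPKM in CKD2 and CKD3 and between 0.0487 and 0.121 elsewhere. Cdh5 and Kdr, also endothelial, stayed at or under 0.153 and 0.0366 FPKM in all libraries. S100b, also listed for Schwann cells and expressed in several mesenchymal cells, was lower in CKD (8.08 ± 1.70 against 16.9 ± 1.20 FPKM, SD, n = 3 each; difference of -0.99 ± 0.16 SE on the log2 scale with a limma adjusted p of 0.0462), a call lost when any of CKD2, CKD3, con2 and con3 was left out, with differences of -1.05, -1.10, -0.97 and -0.96 in those fits. Of 13 genes of the cell cycle list, all were highest in CKD2 or CKD3, as were 42.8% of all genes, and 6 were higher in CKD by limma, beside 1.33% of all tested genes, among them Plk1, Mcm2, Ccna2 and Top2a. These 4 calls were likewise lost when any of CKD2, CKD3, con2 and con3 was left out, under the tag and with the covariate, and that of Mcm2 also with libraries of like name averaged (limma adjusted p = 0.0643).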
